A study of Mus musculus with 18 samples.

Results

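Heterochromatin protein 1 (HP1) and the enzymes that methylate lysine 9 of histone H3 (H3K9) were followed across Hmga2 wt and KO cells. The members were the 10 genes whose symbol in the deposited table was Cbx1, Cbx3, Cbx5, Suv39h1, Suv39h2, Setdb1, Trim28, Ehmt1, Ehmt2 or Atrx, out of 45706 genes in all. All 10 were present, and all 10 were among the 16619 genes that passed the filter on low counts. Cells were mouse induced pluripotent stem cells (iPSCs), taken as wt cells, as the Hmga2 KO clone KO#1 and as the Hmga2 KO clone KO#2, each at 0 h and at 24 h of induction into epiblast-like cells (EpiLCs). Each of these 6 groups had 3 libraries, 18 together, which the methods describe as independent biological replicates. At 0 h the iPSCs grew in LIF and the 2i inhibitors of MEK and GSK3 above a layer of inactivated fibroblasts. For EpiLCs they were plated without feeders on a basement membrane matrix with Activin A and bFGF, so cell state and feeder layer changed together between the time points and cannot be told apart. The RNA of wt cells came from 1 clone, so a difference between a KO clone and wt cells cannot be told apart from a difference between clones. Neither the allele nor the part of Hmga2 that was deleted is given in the sources used here.

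Heterochromatin is packed chromatin marked by methylated H3K9. Suv39h1, Suv39h2 and Setdb1 write the trimethyl mark, and Ehmt1 (GLP) and Ehmt2 (G9a) write the mono- and dimethyl marks as a heterodimer. The HP1 proteins encoded by Cbx1 (HP1 beta), Cbx3 (HP1 gamma) and Cbx5 (HP1 alpha) bind methylated H3K9 through their chromodomain. Trim28 (KAP1) links KRAB zinc finger proteins to Setdb1, a route known for silencing endogenous retroviruses in pluripotent cells, and Atrx deposits the histone variant H3.3 in heterochromatin together with Daxx. The comparisons below ask how the RNA of this machinery changed when wt and Hmga2 KO cells left the naive state, and how it differed between them. In bulk RNA, fewer cells of one type and less RNA per cell cannot be told apart.

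Total counts ran from 3466436 to 23872837 per library, and 3 counts corresponded to between 0.116 and 0.984 CPM (counts scaled to library size, here with TMM factors). The smallest library was wt replicate 1 at 0 h, in which the noncoding gene Gm26917 alone took 33.3% of the counts. Protein-coding genes held 83.1% ± 1.33 (SD, n = 3) of the counts of the KO#2-labelled libraries at 24 h, against 54.4% ± 11.4 in wt cells and 51.6% ± 10.9 in KO#1. At 0 h these shares were 78.0% ± 1.49, 61.3% ± 7.62 and 69.0% ± 7.79. Hmga2 itself stood at 13.3 to 22.4 CPM in wt cells, 1.75 to 10.2 CPM in KO#1 and 1.84 to 8.25 CPM in the KO#2-labelled libraries at 0 h. At 24 h it was 5.51 to 5.93 CPM in wt cells, 0.871 to 3.67 CPM in KO#1 and 3.02 to 10.5 CPM in the KO#2-labelled libraries. Of the 4 comparisons of Hmga2 with wt cells, edgeR's quasi-likelihood test called 1, the KO#2-labelled libraries at 0 h (log2 fold change -1.90, adjusted p = 0.0230). KO#1 was not called at 0 h (-1.71, adjusted p = 0.124) or at 24 h (-1.36, adjusted p = 0.220), nor were the KO#2-labelled libraries at 24 h (-0.04, SE 0.60, adjusted p = 0.966), where 1 of their 3 libraries stood above every wt library. Hmga2 also fell over time in wt cells (-1.61, adjusted p = 0.0362), whereas the paper describes it as induced when ESCs differentiate. Feeder cells were present at 0 h alone, and their part in this fall was not tested. Hmga2 RNA thus checks the labels of both KO clones in part, and since it was not lower at 24 h in KO#2 the samples of that clone are called the KO#2-labelled libraries throughout. Naive markers (10 of 10 with counts in every group) summed to between 2502 and 4303 CPM at 0 h and to between 300.5 and 719 CPM at 24 h, and primed markers (8 of 8) to between 105 and 205 CPM and then to between 555 and 2210 CPM. By line at 24 h, naive sums were 300.5 to 327 CPM (wt), 485 to 604 CPM (KO#1) and 313 to 719 CPM (KO#2-labelled). Primed sums were 1331 to 2210, 578 to 1160 and 555 to 1294 CPM, so every wt library lay above every KO library. Of 8 fibroblast markers, Dcn had no count in wt cells at 0 h and the others had counts in every group. Their sum at 0 h was 110 to 390 CPM in wt cells, 183 to 514 CPM in KO#1 and 331 to 898 CPM in the KO#2-labelled libraries. At 24 h it was 19.0 to 34.6, 38.7 to 51.8 and 71.0 to 219 CPM. The part of these shifts in the results below was not tested.

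All 10 members had counts in every library, from 29 counts of Suv39h2 to 31773 counts of Trim28. Per kilobase of exon, Trim28 was the most abundant member in wt cells at 0 h, at 272 CPM per kb ± 68.3 (SD, n = 3). Setdb1 followed at 29.7 ± 4.57 and Ehmt2 at 26.7 ± 13.3 CPM per kb, and among the HP1 genes Cbx1 stood at 22.1 ± 3.79, Cbx5 at 20.3 ± 5.16 and Cbx3 at 11.9 ± 6.46 CPM per kb. Ehmt1 (7.23 ± 0.98) and Atrx (6.99 ± 1.19 CPM per kb) were lower, and the SUV39H pair was the lowest, with Suv39h2 at 3.12 ± 1.01 and Suv39h1 at 2.30 ± 0.14 CPM per kb. The libraries of neighbours in that order overlapped, apart from the steps below Trim28 and below Atrx.

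**Figure D1:**
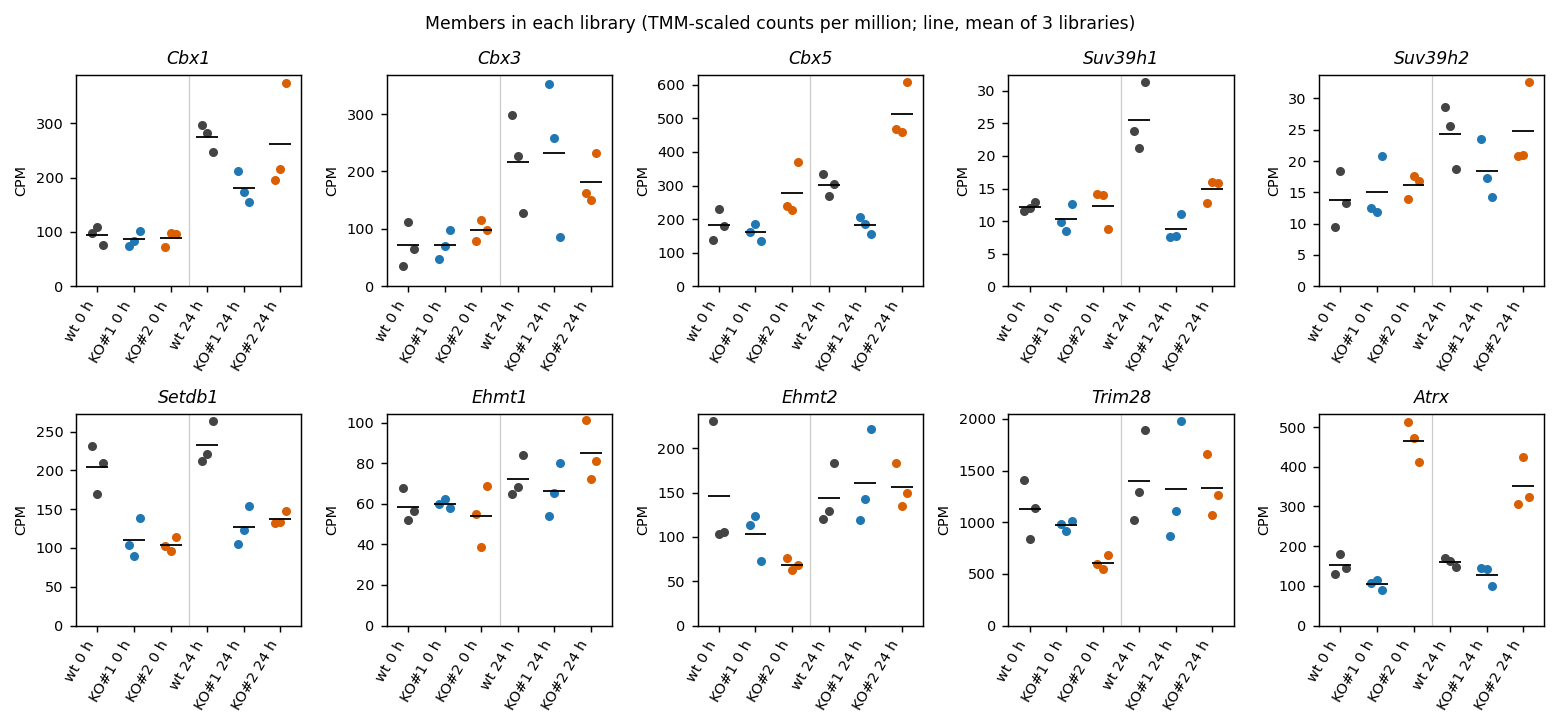
Level of each member in CPM (linear axes from 0) in the 3 libraries of each group, with the line at the mean; grey is wt, blue KO#1 and orange the KO#2-labelled libraries. Setdb1 in all 12 KO libraries lies under every wt library, Suv39h1 is highest in wt cells at 24 h, Cbx1 is higher at 24 h than at 0 h in each line, and Atrx is highest in the KO#2-labelled libraries.

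Promoter sequence is shown for the 4 members on which the comparisons turn: Cbx1, which rose in all 3 lines, Setdb1, which was lower than in wt cells in both KO clones at both time points, Suv39h1, which was lower in both at 24 h, and Atrx, which was higher in the KO#2-labelled libraries. The 120 bases before the RefSeq start are given on the gene's strand (RefSeq on GRCm38.p6). They span chr11:96789015-96789134 (plus strand) for Cbx1, chr3:95357203-95357322 (minus) for Setdb1, chrX:8074761-8074880 (minus) for Suv39h1 and chrX:105929373-105929492 (minus) for Atrx. Capitals mark the letters of the CCAAT box (CCAAT, bound by NF-Y), the GC box (GGGCGG, bound by Sp1) and the ETS motif (CCGGAAG), as these letters or as their reverse complement, since both strands were read.
Cbx1: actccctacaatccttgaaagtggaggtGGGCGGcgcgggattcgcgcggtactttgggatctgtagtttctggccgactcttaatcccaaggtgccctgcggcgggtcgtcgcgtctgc
Setdb1: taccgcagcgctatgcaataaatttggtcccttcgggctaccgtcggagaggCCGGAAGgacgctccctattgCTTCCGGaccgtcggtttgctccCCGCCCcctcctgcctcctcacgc
Suv39h1: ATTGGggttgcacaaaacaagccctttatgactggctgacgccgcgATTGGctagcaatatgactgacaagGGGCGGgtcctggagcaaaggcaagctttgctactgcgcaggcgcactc
Atrx: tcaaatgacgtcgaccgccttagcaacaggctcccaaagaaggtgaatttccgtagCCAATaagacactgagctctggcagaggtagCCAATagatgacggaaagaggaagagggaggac

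Symbols matched RefSeq windows (250 bases before to 50 after a start) for all 10 members, 14 windows in all. GC box letters occurred in at least 1 window of 9 of the 10 members, against 35.7% of the 32851 windows in RefSeq, and Atrx was the member without them. CCAAT letters occurred for 4 members (Cbx5, Suv39h1, Setdb1 and Atrx) against 37.4% of windows. The ETS letters occurred for Setdb1 alone, against 8.86% of windows. E2F letters (TTCCCGC) were present for Suv39h2 and Trim28 against 4.5996% of windows and E-box letters (CACGTG) for Cbx5 and Ehmt2 against 7.15%. Members with several windows had more chances of a match. The 14 windows also held 50.3% to 82.7% GC and 8 to 40 CpG, against medians of 52.7% and 7 over all windows. The part of base composition in these counts was not tested. These matches are letters in the reference and were not measured as binding.

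The first comparison asked how the machinery changed over 24 h of EpiLC induction. In wt cells 5 of the 10 members were called higher, the HP1 genes Cbx1, Cbx3 and Cbx5 and both SUV39H genes, while Setdb1, Trim28, Ehmt1, Ehmt2 and Atrx were not called. The share of all 16619 genes called was 50.7%, with 26% called higher and 24.7% lower, so about as many members changed as among all genes, and all of those were higher. In KO#1 2 members were called higher, Cbx1 and Cbx3, against 40.8% of all genes called, 20.1% higher and 20.6% lower. In the KO#2-labelled libraries 5 were called higher, Cbx1, Cbx5, Trim28, Ehmt1 and Ehmt2, against 26% of all genes called, 12.7% higher and 13.3% lower. Over the 10 members the log2 fold change had a median of 0.52 for wt, 0.29 for KO#1 and 0.77 for the KO#2-labelled libraries, where the medians of all genes tested were 0.03, 0.00 and -0.03. Every library at 24 h lay above every library at 0 h for 5 members in wt cells, for Cbx1 in KO#1 and for 8 members in the KO#2-labelled libraries, all but Suv39h1 and Atrx. Among all genes 30.2%, 22% and 22.8% did so in these lines. With library sizes in place of TMM factors the wt calls of Cbx3 (0.91), Cbx5 (0.099), Suv39h1 (0.47) and Suv39h2 (0.13) were lost, as were those of Cbx1 (0.23) and Cbx3 (0.77) in KO#1 and of Cbx5 (0.84), Trim28 (1.09) and Ehmt1 (0.61) in the KO#2-labelled libraries. Without the filter on low counts the calls of Cbx5 in wt cells (0.74, adjusted p = 0.0623) and of Ehmt1 in the KO#2-labelled libraries (0.67, adjusted p = 0.105) were lost.

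Cbx1 (ENSMUSG00000018666, chr11:96789127-96808640, plus strand) encodes the HP1 protein that moved most evenly. It measured 97.7, 109 and 76.6 CPM in wt cells at 0 h and 297, 283 and 247 CPM at 24 h, with no overlap. KO#1 went from 74.4, 83.9 and 102 CPM to 212, 174 and 155 CPM, and the KO#2-labelled libraries from 71.6, 97.7 and 96.0 CPM to 196, 215 and 375 CPM. The log2 fold change was 1.55 (SE 0.26, adjusted p = 0.000142) in wt cells, 1.05 (SE 0.26, adjusted p = 0.00404) in KO#1 and 1.57 (SE 0.26, adjusted p = 0.000324) in the KO#2-labelled libraries by edgeR's quasi-likelihood test. It was the one member called higher in all 3 lines, and no left-out library ended any of these calls, but with library sizes alone the KO#1 call was lost (0.23, adjusted p = 0.573). The share of all genes called higher in all 3 lines was not counted.

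Cbx3 (ENSMUSG00000029836, chr6:51470360-51483704, plus strand) encodes the HP1 protein that is also found along active genes. It spread more between replicates. Wt cells had 35.8, 112 and 65.3 CPM at 0 h and 299, 226 and 127 CPM at 24 h, and KO#1 had 48.4, 70.6 and 97.4 CPM and then 353, 259 and 85.6 CPM, where the groups overlapped. The KO#2-labelled libraries had 79.3, 115 and 97.2 CPM at 0 h and 163, 151 and 232 CPM at 24 h. The log2 fold change was 1.60 (SE 0.46, adjusted p = 0.00823) in wt cells and 1.69 (SE 0.46, adjusted p = 0.00826) in KO#1, and 0.91 (SE 0.45, adjusted p = 0.153) in the KO#2-labelled libraries, where it was called without the filter on low counts (0.92, adjusted p = 0.0226). Without wt replicate 1 at 0 h the wt value was 1.24 (adjusted p = 0.0501), and without KO#1 replicate 1 at 24 h the KO#1 value was 1.24 (adjusted p = 0.0564). Of the 75-base stretches of its coding transcripts, 22.1% also occur in other genes, mainly processed copies of Cbx3, so its counts may be divided among them.

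Cbx5 (ENSMUSG00000009575, chr15:103191544-103239816, minus strand) encodes HP1 alpha, concentrated at pericentric heterochromatin. Its levels in wt cells were 138, 231 and 181 CPM at 0 h and 334, 270 and 304 CPM at 24 h (log2 fold change 0.72, SE 0.25, adjusted p = 0.0241). In the KO#2-labelled libraries they were 238, 226 and 369 CPM and then 468, 461 and 607 CPM (0.88, SE 0.25, adjusted p = 0.0154). KO#1 had 161, 187 and 136 CPM at 0 h and 206, 187 and 156 CPM at 24 h, with overlap and no call. The wt call was lost without wt replicate 1 or 3 at either time point (log2 fold change 0.52 to 0.71 in those fits), and the call in the KO#2-labelled libraries without their replicate 1 or 2 at 0 h or replicate 3 at 24 h (0.75 to 0.78).

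Within the HP1 family, the balance of Cbx5 and Cbx1 shifted over the 24 h. Of the summed CPM per kb of the 3 genes, Cbx5 in wt cells made up 37.5% ± 3.3 (SD, n = 3) before induction and 25.3% ± 4.0 after it, 36.1% ± 7.6 and 20.9% ± 4.1 in KO#1, and 45.2% ± 7.2 and 38.9% ± 3.6 in the KO#2-labelled libraries. Cbx1 made up 41.6% ± 8.8 and 48.4% ± 3.5 in wt cells, 40.3% ± 2.8 and 43.4% ± 8.8 in KO#1, and 30.7% ± 3.0 and 40.6% ± 4.3 in the KO#2-labelled libraries. The log2 ratio of Cbx5 to Cbx1 fell by 0.76 between 0 h and 24 h within the 3 lines (two-sided exact permutation test within lines, 8000 splits, p = 0.0005, adjusted p = 0.006 over 12 ratio tests), and it kept p under the threshold when any one library was left out (-0.84 to -0.71). The ratio of Cbx3 to Cbx1 had no such shift (-0.01, exact permutation p = 0.955). Exon length moved with this result: the exons of Cbx5 hold 9006 bases and those of Cbx1 4273, and in wt cells protein-coding genes with 2 to 5 kb of exon had a median log2 fold change of 0.12 where those with 5 to 10 kb had -0.26. In KO#1 these medians were 0.09 and -0.25 and in the KO#2-labelled libraries 0.07 and -0.10. The part of exon length in the ratio was not tested.

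**Figure D2:**
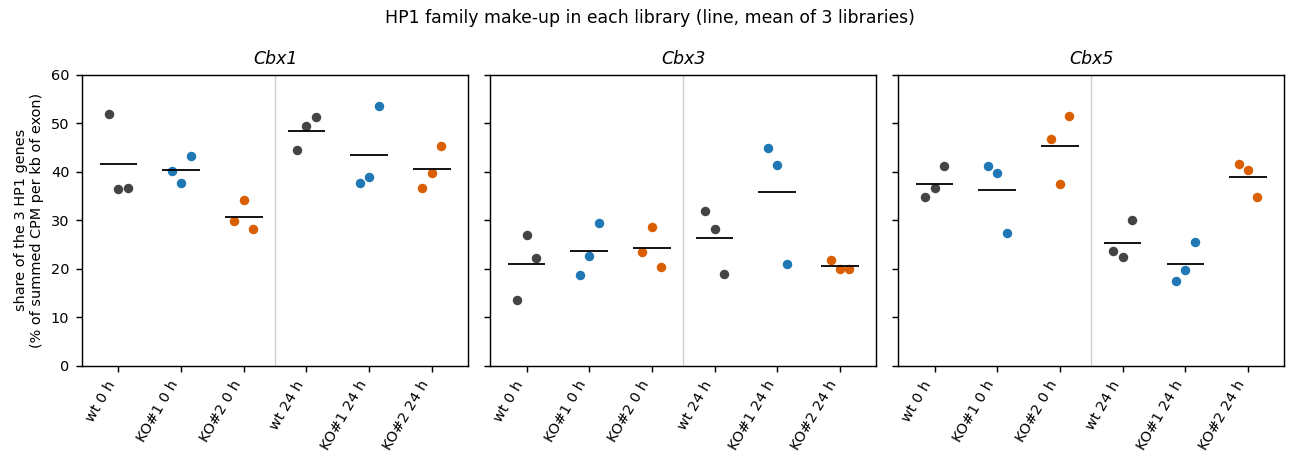
Share of Cbx1, Cbx3 and Cbx5 in the summed CPM per kb of exon of the 3 HP1 genes (percent, linear axes from 0) in each library, with the line at the mean of 3 libraries. Cbx5 went from a mean of 37.5% to 25.3% in wt cells and from 36.1% to 20.9% in KO#1, and stood at 45.2% and 38.9% in the KO#2-labelled libraries.

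Suv39h1 (ENSMUSG00000039231, chrX:8061171-8074760, minus strand) writes H3K9 trimethylation at pericentric repeats. In wt cells it went from 11.5, 12.0 and 12.9 CPM at 0 h to 23.88, 21.2 and 31.3 CPM at 24 h, with no overlap (log2 fold change 1.06, SE 0.25, adjusted p = 0.00213, and 0.84 to 1.15 with any one library left out). In KO#1 it was 9.91, 8.56 and 12.6 CPM at 0 h and 7.57, 7.77 and 11.1 CPM at 24 h. The KO#2-labelled libraries had 14.2, 13.9 and 8.82 CPM and then 12.9, 16.02 and 15.9 CPM. In both KO clones the time points overlapped and the change was not called. The difference in response from wt cells was -1.31 (SE 0.36, unadjusted p = 0.00166, adjusted p = 0.132) for KO#1 and -0.79 (SE 0.35, unadjusted p = 0.0358, adjusted p = 0.186) for the KO#2-labelled libraries by edgeR's quasi-likelihood test, so neither passed the threshold over all genes. DESeq2 called the KO#1 difference (-1.29, adjusted p = 0.0299) and not the other (-0.74, adjusted p = 0.137).

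Suv39h2 (ENSMUSG00000026646, chr2:3455815-3475031, minus strand) is its paralogue. It was 9.51, 18.4 and 13.3 CPM in wt cells at 0 h and 28.6, 25.5 and 18.8 CPM at 24 h (log2 fold change 0.80, SE 0.30, adjusted p = 0.0321). In KO#1 it was 12.5, 11.9 and 20.8 CPM and then 23.5, 17.3 and 14.3 CPM, which overlapped, and in the KO#2-labelled libraries 14.0, 17.7 and 16.9 CPM and then 20.8, 21.0 and 32.7 CPM (0.62, SE 0.29, adjusted p = 0.123). The wt call did not survive the loss of wt replicate 1 or 3 at 0 h or replicate 1 or 2 at 24 h (0.57 to 0.76).

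Trim28, Ehmt1 and Ehmt2 were called over time in the KO#2-labelled libraries and not in the other lines with TMM factors, and no difference in response was called for them. With exon-length offsets Ehmt2 was called in KO#1 as well (0.83, adjusted p = 0.0421, against 0.65, adjusted p = 0.111, without them), and 7 members were called in wt cells and 4 in KO#1. The values that follow are those of the KO#2-labelled libraries without these offsets. Trim28 (ENSMUSG00000005566, chr7:12999114-13031035, plus strand) went from 597, 550.1 and 681 CPM to 1655, 1074 and 1262 CPM (log2 fold change 1.13, SE 0.32, adjusted p = 0.0147). Ehmt2 (ENSMUSG00000013787, chr17:34898469-34914052, plus strand) went from 76.0, 62.5 and 68.0 CPM to 183, 135 and 149.7 CPM (1.18, SE 0.32, adjusted p = 0.0114). Ehmt1 (ENSMUSG00000036893, chr2:24789928-24919614, minus strand) went from 54.8, 38.7 and 68.7 CPM to 101, 72.1 and 81.3 CPM (0.65, SE 0.23, adjusted p = 0.0429). For all 3 genes the KO#2-labelled libraries at 24 h were free of overlap with those at 0 h. The Trim28 call was lost without KO#2 replicate 1 at 0 h or 24 h (1.11 and 0.94). The Ehmt1 call was lost without KO#2 replicate 1 or 2 at 0 h or replicate 1 or 3 at 24 h (0.46 to 0.69). The Ehmt2 call was kept with any KO#2 library left out (1.06 to 1.28). In wt cells Trim28 was 1407, 840.0 and 1140.1 CPM and then 1021, 1290 and 1893 CPM, Ehmt2 231, 103 and 106 CPM and then 121, 129 and 183 CPM, and the groups overlapped for both. The difference in response of the KO#2-labelled libraries from wt cells was 1.198 for Ehmt2 (SE 0.45, adjusted p = 0.134) and 0.82 for Trim28 (SE 0.45, adjusted p = 0.274) by edgeR's quasi-likelihood test.

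Setdb1 and Atrx were not called over time in any line by edgeR with TMM factors and without exon-length offsets. The response differences between each KO clone and wt cells called 0 of 10 members by edgeR, against 0.391% of all genes for KO#1 and 1.47% for the KO#2-labelled libraries. At an unadjusted p under 0.05 there were 1 and 2 members, Suv39h1 for KO#1 and Suv39h1 and Ehmt2 for the KO#2-labelled libraries, where 1679 and 3920 of the 16619 genes did so, and DESeq2 called 1 and 0, against 276 and 1409 of all genes. By edgeR, a rise called in one line and not in another is therefore not shown to differ between them, and by DESeq2 only that of Suv39h1 between wt cells and KO#1 is.

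**Figure D3:**
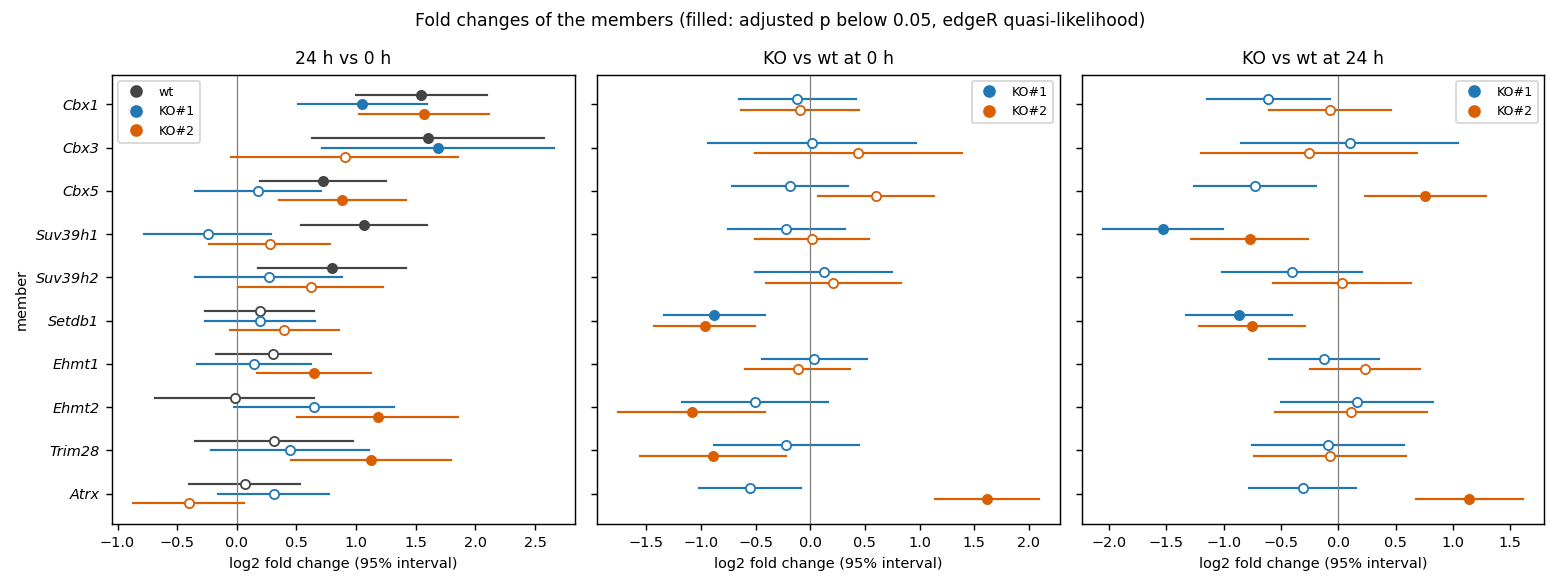
Log2 fold change of each member with its 95% interval for 24 h against 0 h in each line (left) and for each KO clone against wt cells at 0 h (middle) and 24 h (right); filled points have an adjusted p under 0.05 by edgeR. Cbx1 is filled in all 3 lines over time, and Setdb1 is filled and below 0 for both KO clones at both time points.

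The second comparison asked how the KO clones differed from wt cells. Both share the wt libraries, so the clones are given side by side and not as independent tests. Against wt cells KO#1 had 1 member called lower at 0 h, Setdb1, against 6.67% of all genes called, 3.99% higher and 2.68% lower, and 2 at 24 h, Setdb1 and Suv39h1, against 9.86% called, 6.25% higher and 3.61% lower. Cbx5 in KO#1 at 24 h was not called by edgeR (-0.73, adjusted p = 0.0803) but was by DESeq2 (-0.72, adjusted p = 0.0292). For the KO#2-labelled libraries 4 members were called at 0 h, Atrx higher and Setdb1, Trim28 and Ehmt2 lower, against 38.1% of all genes, 21.5% higher and 16.6% lower. At 24 h 4 were called, Atrx and Cbx5 higher and Setdb1 and Suv39h1 lower, against 37.3% of all genes, 21.3% higher and 16% lower. In that clone the share of members called was near that of all genes. All KO#1 libraries lay under all wt libraries for Setdb1 and Atrx at 0 h, where 9.46% of all genes did so, and for 5 members at 24 h, Cbx1, Cbx5, Suv39h1, Setdb1 and Atrx, where 13.5% did so. For the KO#2-labelled libraries 1 member lay above (29.7% of all genes) and 3 below (23.2%) at 0 h, and 2 above (29.8%) and 2 below (22.4%) at 24 h.

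Setdb1 (ENSMUSG00000015697, chr3:95323525-95357202, minus strand) was the one member called in all 4 comparisons of a KO clone with wt cells. At 0 h it stood at 232, 170.0 and 209.6 CPM in wt cells, at 104, 89.6 and 139 CPM in KO#1 and at 103, 95.5 and 114 CPM in the KO#2-labelled libraries. At 24 h it stood at 212, 222 and 264 CPM in wt cells, at 105, 123 and 154 CPM in KO#1 and at 132, 134 and 147 CPM in the KO#2-labelled libraries. None of the 12 KO libraries reached the lowest wt library. How many of all genes did the same, in the 4 calls or in this separation, was not counted. At 0 h the log2 fold change was -0.88 (SE 0.22, adjusted p = 0.0209) in KO#1 and -0.97 (SE 0.22, adjusted p = 0.00331) in the KO#2-labelled libraries, and at 24 h it was -0.87 (SE 0.22, adjusted p = 0.0155) and -0.76 (SE 0.22, adjusted p = 0.0122), by edgeR's quasi-likelihood test. These are 1.84-, 1.95-, 1.83- and 1.69-fold lower levels. The direction was kept in every fit with a library left out, while the KO#1 call at 0 h was lost without wt replicate 1 or 3 or KO#1 replicate 1 or 2 (-0.85 to -0.73, adjusted p up to 0.102). The KO#1 call at 24 h was lost without wt replicate 2 or 3 or KO#1 replicate 1 or 2 (-0.88 to -0.72, adjusted p up to 0.0975), and the one for the KO#2-labelled libraries at 24 h without wt replicate 3 (-0.64, adjusted p = 0.0631). At 0 h the call for the KO#2-labelled libraries held in each such fit (-1.08 to -0.89). Without the filter on low counts the calls in KO#1 at both time points and the one at 24 h in the KO#2-labelled libraries were lost (-0.86, -0.86 and -0.72, adjusted p = 0.0756, 0.0623 and 0.0710). With library sizes in place of TMM factors none of the 4 was called, the KO#1 values were -0.71 at 0 h and -0.88 at 24 h, the value at 0 h for the KO#2-labelled libraries was -0.49, and the value for these libraries at 24 h turned to 0.27 (adjusted p = 0.479), a scaling under which the median of all genes in that comparison moved by 1.04. The Setdb1 promoter stretch printed above holds the ETS letters at 2 places. Exons of Setdb1 share bases with Cers2 on the opposite strand, and 7.04% of its 75-base stretches occur in other genes, almost all of these in Gm4349 and Gm37500, whose mean levels were at most 2.67 CPM in any group. Cers2 had 14297 counts in all and was called lower in the KO#2-labelled libraries at 24 h (-0.94, adjusted p = 0.0129), the direction of Setdb1, and was not called in the other 3 comparisons with wt cells (-0.27 to -0.079). The part of this overlap in the values of Setdb1 was not tested.

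Suv39h1 was called lower than in wt cells in both KO clones at 24 h, from the levels given above. The log2 fold change was -1.53 (SE 0.25, adjusted p = 0.000541) in KO#1, 2.89-fold lower, and this call was kept with each library left out (-1.71 to -1.31) and under every alternative run. In the KO#2-labelled libraries it was -0.77 (SE 0.24, adjusted p = 0.0189), 1.71-fold lower, and the call was lost without wt replicate 3 (-0.58) or KO#2 replicate 1 (-0.67), without the filter on low counts (-0.74, adjusted p = 0.0742) and with library sizes alone, where the sign turned (0.24, adjusted p = 0.573). The lowest wt library at 24 h, 21.2 CPM, stood above the highest KO library, 16.02 CPM. Suv39h2 had no called difference in any of these comparisons. The log2 ratio of Suv39h1 to Suv39h2 at 24 h differed by -0.95 between the 6 KO and the 3 wt libraries, KO minus wt (two-sided exact permutation test over 84 splits, p = 0.0238, adjusted p = 0.143 over 12 tests), where the 6 libraries come from 2 clones. The antisense gene Gm14820 shares exon bases with Suv39h1, and 11.9% of the 75-base stretches of Suv39h1 occur in it. Gm14820 had 5227 counts in all against 4005 for Suv39h1, and its means at 24 h were 11.9 CPM in wt cells, 25.5 CPM in KO#1 and 18.3 CPM in the KO#2-labelled libraries, so it moved the other way (log2 fold change 1.09, adjusted p = 0.0941 in KO#1). The use of strand in counting is not given in the sources used here, and the part of this overlap in the result was not tested.

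Atrx (ENSMUSG00000031229, chrX:105797615-105929403, minus strand), the H3.3 remodeller, was higher in the KO#2-labelled libraries. At 0 h it measured 131, 181 and 145 CPM in wt cells, 107, 114 and 90.2 CPM in KO#1 and 512, 472 and 413 CPM in the KO#2-labelled libraries. At 24 h it measured 169, 162 and 147 CPM in wt cells, 145, 141 and 99.5 CPM in KO#1 and 306, 425 and 325 CPM in the KO#2-labelled libraries. Neither time point had overlap between the KO#2-labelled libraries and the others. Against wt cells the log2 fold change was 1.61 (SE 0.23, adjusted p = 9.63e-05), 3.06-fold, at 0 h and 1.14 (SE 0.22, adjusted p = 0.000802), 2.21-fold, at 24 h, and each call was kept with any library left out. Exon length moved with this result. Atrx has 21757 bases of exon, and over the 100 protein-coding genes with more than 20 kb the median log2 fold change of the KO#2-labelled libraries from wt cells was 0.90 at 0 h and 1.13 at 24 h, against -0.33 and -0.70 for the 1979 genes under 2 kb. In KO#1 the same medians ran from 0.21 to -0.13 at 0 h and from 0.06 to -0.24 at 24 h. With offsets corrected for exon length, an alternative added after seeing the data, Atrx was 0.84 higher at 0 h (adjusted p = 0.0186) and 0.09 higher at 24 h (adjusted p = 0.817), so the call at 24 h was lost. That correction moved the median of all genes by -0.24 and -0.16.

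The same correction was applied to the other members called in that clone. Cbx5, with 9006 bases of exon, was higher than in wt cells at 24 h in the KO#2-labelled libraries (0.76, SE 0.25, adjusted p = 0.0251), and 0.24 with the correction (adjusted p = 0.491). At 0 h Cbx5 was not called there (0.60, adjusted p = 0.0688), except without wt replicate 2 (0.80, adjusted p = 0.0369) and with library sizes alone (1.04, adjusted p = 0.0202). The call at 24 h was also lost without wt replicate 2 or 3 or KO#2 replicate 3 (0.63 to 0.78) and without the filter on low counts (0.79, adjusted p = 0.0519). Setdb1 and Suv39h1 kept their calls with the correction, at -1.26 at 0 h and -1.18 at 24 h for Setdb1 and -1.09 at 24 h for Suv39h1. Trim28 and Ehmt2 at 0 h kept theirs too, at -0.998 and -1.34. Without it the log2 fold change from wt cells was -0.89 for Trim28 (SE 0.32, adjusted p = 0.0358) and -1.09 for Ehmt2 (SE 0.32, adjusted p = 0.0144). The Ehmt2 call was lost without wt replicate 1 at 0 h (-0.63), the smallest library, in which Ehmt2 stood at 231 CPM against 103 and 106 CPM in the other wt libraries. The Trim28 call was lost without wt replicate 1 or 3 or any one KO#2 replicate (-0.97 to -0.73) and without the filter on low counts (-0.85, adjusted p = 0.0563). With library sizes alone neither was called (-0.40 for Trim28 and -0.56 for Ehmt2).

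**Figure D4:**
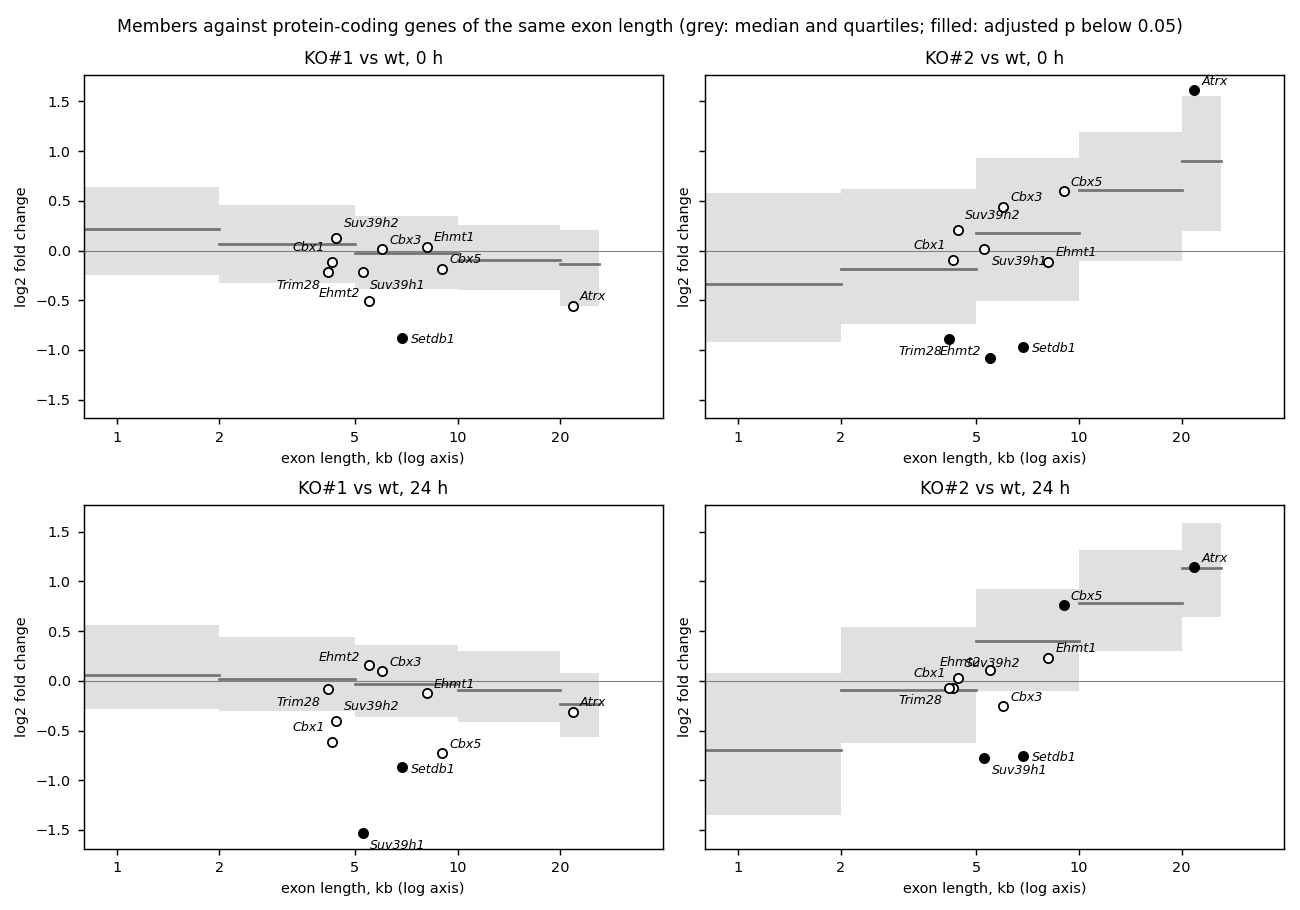
Log2 fold change of each member against its exon length in kb (log axis), for each KO clone against wt cells at 0 h and 24 h; grey lines and bands are the median and quartiles of protein-coding genes in 5 classes of exon length, and filled points have an adjusted p under 0.05. In the KO#2-labelled libraries the grey median rises with length to 0.90 and 1.13 above 20 kb, where Atrx lies, while Setdb1 lies under the quartile band of its length class in all 4 panels.

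The KO clones also differed from each other, in a comparison added after seeing the data. The KO#2-labelled libraries had 2 members called higher than KO#1 at 0 h, Atrx and Cbx5, against 26.4% of all genes called (15.1% higher, 11.3% lower), and 3 at 24 h, Atrx, Cbx5 and Suv39h1, against 35.4% (19.3% higher, 16.1% lower). Atrx and Suv39h1 lie on the X chromosome. Xist, the noncoding RNA that coats an inactive X chromosome, was at 28.7 to 85.3 CPM in the KO#2-labelled libraries and at 1.12 to 10.3 CPM in all others. The Y-linked gene Ddx3y was also higher there, at 0.836 to 4.22 CPM against at most 0.735 CPM in all others, while Eif2s3y, Uty and Kdm5d overlapped between these libraries and the others. The summed fibroblast markers, given above, were higher in these libraries than in all others at 24 h. At 0 h their sum overlapped with both other lines. The mean log2 CPM of these markers at 0 h was 4.67 to 6.12 here, 2.72 to 4.08 in wt cells and 3.45 to 4.84 in KO#1. The part of the X, Y and fibroblast markers in the values of Atrx and Suv39h1 was not tested.

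The other genes of the pathway were described through a list of 43 regulators, readers and erasers of H3K9 methylation, all 43 of which were tested. Over 24 h, 10 were called higher and 15 lower in wt cells, 9 and 13 in KO#1, and 8 and 2 in the KO#2-labelled libraries. In the latter, 3 to 12 of the 43 were called when a single library was left out and 2 to 11 under the other alternatives. The shares of all genes in these lines were 26% higher and 24.7% lower, 20.1% and 20.6%, and 12.7% and 13.3%. Of 10 H3K9 demethylases, 6 were called lower and 2 higher in wt cells and in KO#1 alike, and 1 and 2 in the KO#2-labelled libraries, counts that were not tested against those shares. The largest falls in wt cells were those of Adnp (-3.57, SE 0.92, adjusted p = 0.00403), which binds HP1, and of the demethylases Phf2 (-3.06, adjusted p = 0.000216) and Kdm3b (-2.41, adjusted p = 1.64e-05). Adnp spread from 6.98 to 42.0 CPM in wt cells at 0 h and was low at 24 h, at 0.902 to 2.76 CPM. Phf2 stood at 9.64 to 21.0 CPM and then at 1.11 to 2.10 CPM. The largest rises were those of the remodeller Smarcad1 (1.59, adjusted p = 1.68e-05), the demethylase Kdm4c (1.58, adjusted p = 0.000149) and Morc3 (1.41, adjusted p = 0.000776). In KO#1 the falls were led by Phf2 (-2.66), Wiz (-2.56), a partner of Ehmt1 and Ehmt2, and Kdm3b (-1.97), and the rises by Kdm4c (1.65), Smarcad1 (1.47) and the KRAB zinc finger gene Zfp932 (1.43, lost without KO#1 replicate 3 at 0 h or replicate 1 at 24 h). In the KO#2-labelled libraries Daxx, the partner of Atrx, rose by 1.47 (adjusted p = 0.000103), Cdyl by 1.06 and Kdm4c by 0.98 (0.79 and not called without replicate 3 at 24 h), and Prdm16 (-1.10) and Kdm3b (-0.84) were the 2 called lower. The call of Prdm16 was lost without replicate 1 at 0 h or replicate 3 at 24 h (-0.72 and -0.85), and that of Kdm3b without replicate 1 or 3 at 0 h or replicate 2 or 3 at 24 h (-0.77 to -0.62). Kdm3b, at an adjusted p of 0.0499, was also not called with RLE factors (-0.81), library sizes alone (-0.87) or exon-length offsets (-0.53). Library sizes alone ended the calls of Morc3 in wt cells (0.73), of Smarcad1 (0.65) and Zfp932 (0.52) in KO#1, and of Kdm4c (0.93) and Prdm16 (-1.12) in the KO#2-labelled libraries.

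Against wt cells, 1 gene of this list was called in KO#1 at 0 h, Zfp809 (0.97, adjusted p = 0.0408), a KRAB zinc finger protein that brings Trim28 to proviruses, and this call was lost without any one wt library or KO#1 replicate 1 or 2 (0.84 to 1.11). The share of all genes called in KO#1 was 6.67% at 0 h and 9.86% at 24 h. At 24 h there were 3, Kdm3a (0.78), Zfp644 (-0.75) and Pphln1 of the HUSH complex (-1.43, adjusted p = 0.00217), of which Pphln1 kept its call with any library left out. Kdm3a lost its call without any one wt library or KO#1 replicate 1 or 2 (0.75 to 0.86), and Zfp644 without any one wt library or KO#1 replicate 2 or 3 (-0.76 to -0.56). Zfp644 was not called with the replicate block either (-0.75, adjusted p = 0.0592), nor with protein-coding genes only or exon-length offsets, and neither gene was called without the filter on low counts or with library sizes alone. Zfp809 was not called with RLE factors (0.95, adjusted p = 0.0522) or without that filter. For the KO#2-labelled libraries 15 were higher and 9 lower at 0 h, and 13 higher and 2 lower at 24 h, where 38.1% and 37.3% of all genes were called. With exon-length offsets 8 of the 43 were called at 24 h, and with library sizes alone 37. At 0 h Gm15446 (2.15), Zfp809 (1.89) and Kdm7a (1.67) led the rises and Wiz (-2.50), Pogz (-1.38) and Uhrf1 (-1.23) the falls. At 24 h Adnp (2.79, but 0.74 and not called without KO#2 replicate 1), Kdm7a (2.23) and Gm15446 (1.28) were highest, and Chaf1b (-0.94) and Pphln1 (-0.70) were lower. The call of Adnp was lost without wt replicate 2 or 3 too, that of Gm15446 without wt replicate 2 or 3 or any one KO#2 library (1.05 to 1.37), and that of Pphln1 without wt replicate 2 or 3 or KO#2 replicate 1 or 2 (-0.82 to -0.40), without the filter on low counts or with protein-coding genes only. With library sizes alone Pogz (-0.89) and Uhrf1 (-0.75) were not called at 0 h, and Chaf1b (0.090) and Pphln1 (0.30) changed sign at 24 h. With one library left out, 7 to 12 of the 43 were called at 24 h in these libraries and 1 to 2 in KO#1. Of the 10 demethylases, 6 were higher and none lower in that comparison, where 21.3% of all genes were higher and 16% lower, and this count was not tested against those shares or under the alternatives. Against KO#1 these libraries had 13 of the 43 higher and 2 lower at 0 h, and 14 higher and 1 lower at 24 h, where 26.4% and 35.4% of all genes were called. At 24 h the 15 called became 7 with exon-length offsets, 39 with library sizes alone and 9 to 15 with one library left out.

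Genes with the most similar course to each member were listed by Pearson's r of log2 CPM over the 18 libraries, among 10716 genes, as a description. The points share libraries, groups and depth, so that every gene that follows the time points or a clone will be alike. Cbx1 was most like Enpp2 and Slc5a4b (r = 0.958 for both), Cbx3 like Aasdhppt (0.984) and Npm1 (0.983), and Cbx5 like Zfp281 (0.954) and Xpo4 (0.951). Suv39h1 was most like Tro (0.920) and Soat1 (0.854), Suv39h2 like Seh1l (0.971) and Srsf10 (0.950), and Setdb1 like Xkr8 (0.937) and Lhpp (0.934). Trim28 was most like Ppm1g (0.951) and Gemin5 (0.926), Ehmt1 like Supt6 (0.936) and Ipo13 (0.872), Ehmt2 like Zfp219 (0.947) and Cxxc1 (0.929), and Atrx like Thoc2 (0.960) and Phip (0.957). Among the members themselves the highest r were those of Trim28 with Ehmt2 (0.882) and of Cbx3 with Suv39h2 (0.876).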

How the data were processed

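RNA of 18 libraries in 6 groups was analysed, grouped by sample title. The authors deposited counts, whole numbers of reads per gene that are not normalized. Per the study's methods they made stranded total RNA libraries, trimmed adapters, removed ribosomal sequences, aligned to GRCm38 with STAR and quantified with Salmon or StringTie; the annotation release is not given in the sources used here. Gene positions and exon lengths came from GENCODE M21 (GRCm38), which holds 45143 of 45706 identifiers.

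With R 4.3.3 and edgeR 4.0.16, filterByExpr (minimum count 10) left 16619 genes, and one quasi-likelihood model of 6 groups with TMM factors was fitted (common dispersion 0.0970), adjusting by Benjamini-Hochberg over all genes and calling at 0.05. Log2 CPM used a prior count of 2. Ratios were tested by exact permutation with Python 3.11.15, and figures drawn with matplotlib 3.10.9. Where separate cultures are not documented by the labels, p-values measure the spread between these libraries. Steps were tested on simulated data.

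The members and lists were chosen with earlier results of these data known. Named genes were the members, Hmga2, the 3 list genes called with the largest rise and the 3 with the largest fall in each comparison, and the 2 genes most alike to each member at an average log2 CPM of at least 2. Replicate numbers were taken to pair wt and KO#1 libraries at 24 h, where deviations of all same-numbered libraries correlated (r 0.223 to 0.587), and no other groups; the pairing comes from the data, since the labels give numbers alone. Alternatives were DESeq2 1.42.0, RLE factors, library sizes alone, no filter, protein-coding genes only, a replicate block, exon-length offsets (added) and leaving out each library.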

Additional observations from a re-analysis of the deposited data

Results flagged for a closer look

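The differences of the KO clones from wt cells were not alike for 3 members, tested directly as the libraries labelled KO#2 against KO#1 with edgeR's quasi-likelihood test. Atrx was higher by 2.17 on the log2 scale at 0 h (adjusted p = 6.60e-05) and by 1.45 at 24 h (adjusted p = 0.000148), where the value with exon-length offsets was 1.31 (adjusted p = 0.00237) and 0.28 (adjusted p = 0.448). Cbx5 was higher by 0.78 at 0 h (adjusted p = 0.0305), 0.37 and not called with those offsets and not called without KO#1 replicate 1 or 3 or KO#2 replicate 3 (0.53 to 0.78). At 24 h Cbx5 was higher by 1.49 (adjusted p = 0.000347), and by 0.93 with the offsets (adjusted p = 0.00986). Suv39h1 was higher by 0.76 at 24 h (adjusted p = 0.0239), 0.47 with the offsets (adjusted p = 0.157), and not called without KO#1 replicate 1 or 2 or KO#2 replicate 2 or 3 (0.63 to 0.72). Its value reached 1.79 at the highest under the alternatives. Without the filter on low counts, Suv39h1 at 24 h and Cbx5 at 0 h were not called.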

How the results depend on the processing

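KO#2 here stands for the libraries so labelled. Depth limits the low members: Suv39h1 and Suv39h2 had 35 and 29 counts in the smallest library. With library sizes in place of TMM factors the median of all genes moved by 1.04 (KO#2 against wt at 24 h), 1.07 (KO#2 against KO#1 at 24 h), 0.45 and 0.31 (the same at 0 h), 0.13 (KO#1 against wt at 0 h), -0.62 and -0.79 (24 h in wt and KO#1), and -0.17 and 0.59 (response differences of KO#1 and KO#2), and the calls among members were 1, 1 and 2 over time (wt, KO#1, KO#2), 0 and 2 for KO#1 and KO#2 against wt at 0 h, 1 and 7 at 24 h, and 9 for KO#2 against KO#1 at 24 h. Of all calls 94.8% were then higher against 57.1% with TMM (KO#2 against wt at 24 h), 90.3% against 56.4% (at 0 h), 71.3% against 59.8% (KO#1 at 0 h), 90.6% against 57.3% and 95.5% against 54.5% (KO#2 against KO#1), and 21.4% against 51.3% and 11.4% against 49.4% (24 h in wt and KO#1). With exon-length offsets it was 37.7% and 42.4% (KO#2 against wt) and 36.4% and 40.1% (against KO#1). With library sizes Suv39h1 (0.24), Setdb1 (0.27), Chaf1b (0.090) and Pphln1 (0.30) changed sign in KO#2 against wt at 24 h, Chaf1b (0.40) in KO#2 against KO#1, and Ehmt2 over time in KO#1 (-0.078). The 1 member called over time in KO#1 with library sizes was neither Cbx1 nor Cbx3, the members called there with TMM. Without a filter the members called were 0 (KO#1 against wt at 0 h), 1 and 1 (KO#1 and KO#2 against wt at 24 h) and 1 (KO#2 against KO#1 at 0 h). With exon-length offsets they were 4 (24 h in KO#1), 2 (KO#2 against wt at 24 h), 1 and 1 (KO#2 against KO#1 at 0 h and 24 h). DESeq2 called 1 member in the response difference of KO#1.

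Leaving out one library gave 2 to 5 members over time in wt cells, 1 to 2 in KO#1 and 2 to 5 in KO#2, 0 to 1 and 2 to 5 for KO#1 and KO#2 against wt at 0 h, 1 to 2 and 1 to 4 at 24 h, and 1 to 2 for KO#2 against KO#1 at 0 h. The ratio of Cbx3 to Cbx1 ranged from -0.17 to 0.15 over time and from -0.011 to 0.47 in KO against wt at 24 h, and that of Ehmt1 to Ehmt2 from -0.35 to -0.185 over time, passing its test without wt replicate 1 at 0 h. With the replicate block the members called were 5, 2 and 5 over time, 1 and 4 at 0 h and 2 and 4 at 24 h against wt, as without it, and no member's call changed, while among list genes it ended the call of Zfp644 in KO#1 against wt at 24 h and gave 3 calls against 1 in KO#1 against wt at 0 h. Over all genes the response difference gave 65 calls for KO#1 (DESeq2 276, library sizes 4, no filter 307) and 244 for KO#2 (DESeq2 1409, library sizes 801, no filter 1717, protein-coding genes 469, replicate block 447), with 6 to 39 and 51 to 563 calls when one library was left out, and library sizes gave 1088 against 1638 calls for KO#1 and 10208 against 6197 for KO#2 against wt at 24 h, and 9986 against 5878 for KO#2 against KO#1. Leaving out one library also took the calls over all genes down to 2534 against 4324 (24 h in KO#2), 598 against 1108 and 1028 against 1638 (KO#1 against wt at 0 h and 24 h) and 2601 against 4393 (KO#2 against KO#1 at 0 h) at the lowest. Of the 66 member values under 0.5 in size and not called, 120 of 930 refits had the other sign and 15 were called.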
